A study of Mus musculus with 24 samples.

Results

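Egr1, Egr2 and Egr3 encode early growth response transcription factors, and Nab1 and Nab2 encode the corepressors that bind them; the RNA of these 5 genes was followed in the tibialis anterior (TA) muscle of 24 mice. They are 5 of the 55487 genes counted in each mouse, selected by name with earlier results of the same mice in view. Egr1 had been called between light-treated and control sedentary mice, and correlations between mice within groups had been seen. The sedentary contrast, the difference between the effects of light in the 2 exercise states and the within-group correlations are therefore given as descriptions with no test. So are the comparisons of Egr1 between exercise states, which use the same sedentary mice again.

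The study asks whether photobiomodulation therapy (PBMT, near-infrared light given to living tissue) alters muscle at rest and after exhausting exercise. All mice were wild-type C57BL/6J males 5 to 7 weeks old, and each of the 4 groups held 6 mice: sedentary control, sedentary PBM, fatigued control and fatigued PBM. PBM mice received 830 nm light on the shaved lower limbs for 20 min under anesthesia (fluence 30 J/cm2, irradiance 25 mW/cm2), whereas controls were shaved and anesthetized without it. TA muscle was dissected 24 h after the light, in fatigued mice directly after a treadmill run to exhaustion. The sedentary and fatigued mice were sequenced as 2 separate projects, so exercise state and project cannot be told apart in any comparison between them.

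The authors deposited whole-number counts per gene and mouse. Total counts ran from 43271093 to 46904076 in sedentary controls (median 45278264) and from 46327516 to 52775844 in sedentary PBM mice (median 49421795). Totals of these groups differed (two-sided p = 0.00433 in an exact permutation test of 6 against 6 mice). They ran from 56792327 to 68726155 in fatigued controls (median 61892167) and from 53122528 to 68566029 in fatigued PBM mice (median 60228908), with p = 0.357 in the same exact permutation test. Levels are given as CPM, counts scaled to a common library size by TMM, with the SD between the 6 mice of a group, and differences as log2 fold changes from edgeR with their standard error (SE). A gene is called where its p, adjusted by Benjamini-Hochberg over all genes tested, is under 0.05.

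Sedentary control 4 stood apart from its group. Its root mean square distance from the group mean over all genes tested was 0.473 on the log2 scale, against 0.262 to 0.300 for the other sedentary controls. Fatigued PBM 5 was the farthest of its group at 0.486, against 0.298 to 0.390, but did not pass the same criterion. Log2 fold changes of the 5 genes that either mouse moved most are also given without it, as are the counts of called genes in a list that changed.

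EGR proteins are zinc finger factors that bind GC-rich DNA and are made within minutes of growth factor, stretch, depolarization or stress signals, largely through ERK kinases and the factor SRF. NAB1 and NAB2 bind a shared domain of EGR1, EGR2 and EGR3 and recruit the NuRD chromatin remodeling complex, and Nab2 is itself an EGR target, which closes a feedback loop. In muscle, EGR1 is known from contraction and from tendon cells, EGR2 from the myelin program of Schwann cells, and EGR3 from the muscle spindle.

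Egr1 (ENSMUSG00000038418, chromosome 18, 34859823 to 34864984, plus strand, GRCm38) was low in sedentary controls, with a lowest, median and highest level of 1.69, 2.03 and 3.25 CPM. In sedentary PBM mice these were 6.01, 16.0 and 33.9 CPM. In fatigued controls they were 6.45, 14.3 and 36.5 CPM. All 12 muscles of these 2 groups lay above the highest sedentary control. Fatigued PBM mice had 8.64, 18.8 and 80.6 CPM, the last in mouse 3, and overlapped the fatigued controls. Raw counts of Egr1 were 77 to 150 per mouse in sedentary controls and 300 to 4654 elsewhere, so counting error is small beside the spread between mice. Mean levels were 2.25 ± 0.566 CPM (SD, n = 6) in sedentary controls, 17.2 ± 11.4 in fatigued controls, 17.7 ± 10.4 in sedentary PBM mice and 28.2 ± 26.9 in fatigued PBM mice. The last 3 groups overlap, and their means differ by less than the SD of the fatigued PBM mice. Without sedentary control 4, which had the lowest level, the sedentary control mean was 2.36 ± 0.553 CPM, and without fatigued PBM 3 the fatigued PBM mean was 17.8 ± 9.11 CPM.

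In the sedentary contrast that chose Egr1, its mean CPM with PBMT was 7.86 times that of controls (log2 fold change 2.98, SE 0.383), and 6 of 6 PBM mice exceeded every control. Here 1 of the 5 genes was called, beside 0.0282% of the 14177 genes tested, and 1 of the 5 did not overlap upward, beside 0.205%. That gene was Egr1 in both cases, selected through this same contrast, so nothing is read from these counts. The genes called were Ccn1, Egr1 and Cited2, which were higher, and Nfil3, which was lower. The Egr1 call was lost when sedentary control 1, 2, 4, 5 or 6 was left out, with no low-count filter and in a model of all 24 mice. Leaving out 1 mouse at a time gave log2 fold changes from 2.68 to 3.15, among them 2.91 without sedentary control 4.

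In fatigued muscle, PBMT gave Egr1 a log2 fold change of 0.71 (SE 0.597, edgeR adjusted p = 0.9998), with 1 of 6 PBM mice above the highest control. The exact permutation test of 6 mice against 6 gave p = 0.405, where the smallest p that the 924 arrangements can give is 0.00216. Without fatigued PBM 3 the log2 fold change was 0.05, so this estimate rests on that mouse, and without fatigued control 6 it was 1.08. None of the 5 genes was called, beside 0% (0 of 14574 genes) by edgeR, and 230 genes, or 1.58%, had an unadjusted p under 0.05. DESeq2 called 2 genes in this contrast and limma voom called 0. The PBMT effect on Egr1 was smaller in fatigued than in sedentary muscle by 2.26 on the log2 scale (difference -2.26, SE 0.765), which contains the contrast that chose the gene and was not tested.

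The mean CPM of Egr1 in fatigued controls was 7.66 times that in sedentary controls, 2 groups without light (log2 fold change 2.93, SE 0.582), and 6 of 6 fatigued controls exceeded every sedentary control. Egr1 had been called against these same sedentary controls, so this difference is a description. Over 18 alternatives the log2 fold change was 2.58 to 3.10, among them 2.86 without sedentary control 4. Of all 15108 genes tested by edgeR here, 18.6% were called, namely 9.1% as higher and 9.49% as lower, and 4.08% did not overlap upward. Of the 5 genes, Egr1 was the 1 called, as higher, and the 1 that did not overlap, and nothing is read from these counts. After PBMT the fatigued mice had a log2 fold change of 0.67 (SE 0.514) against the sedentary PBM mice, which also served to choose Egr1, and 1 of 6 exceeded the highest of them. This value was 0.01 without fatigued PBM 3. The sedentary PBM and sedentary control groups each serve in 2 comparisons, so these fold changes are not independent of each other.

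**Figure D1:**
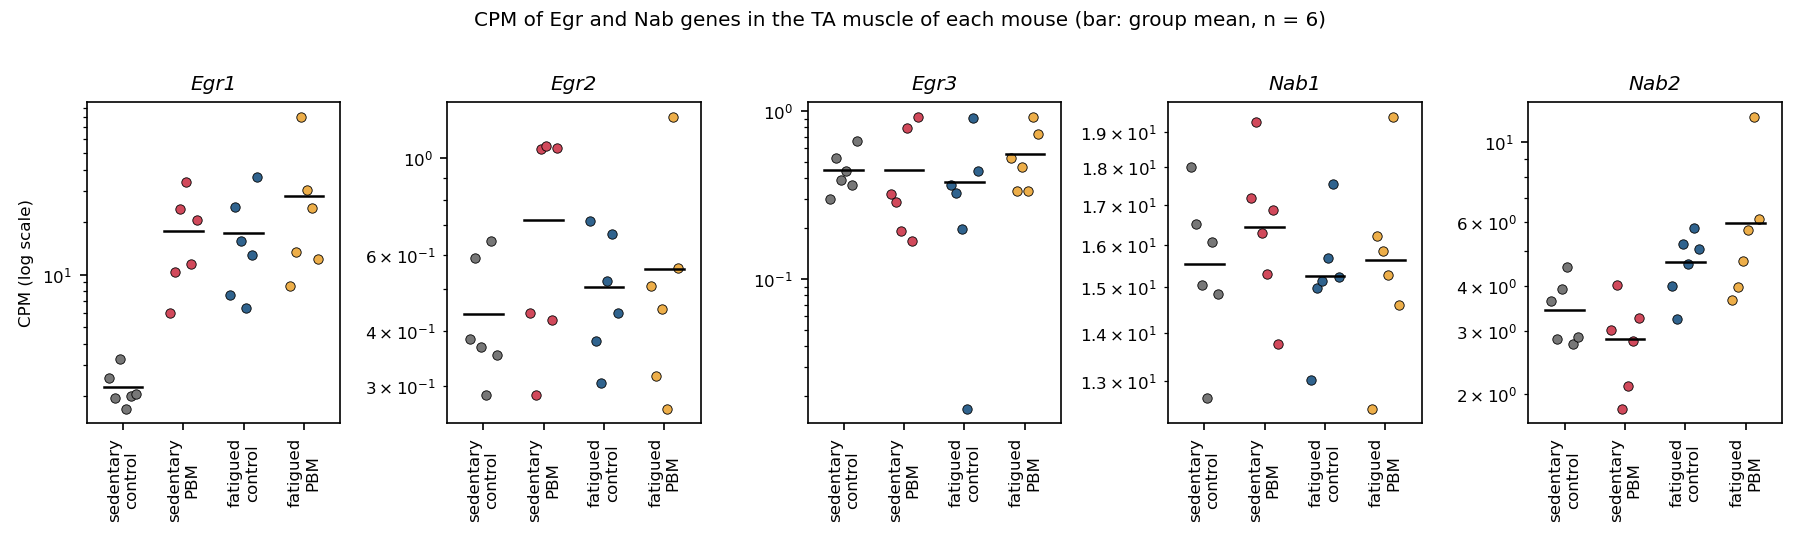
CPM (log scale) of Egr1, Egr2, Egr3, Nab1 and Nab2 in each mouse, with a bar at the mean of the 6 mice of each group. Egr1 lies between 1.69 and 3.25 CPM in sedentary controls and at 6.01 CPM or above in every other mouse, and Nab2 reaches its highest level, 11.7 CPM, in fatigued PBM 5.

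Egr2 (ENSMUSG00000037868, chromosome 10, 67535475 to 67542188, plus strand) was counted 13 to 81 times per mouse, so single values carry sizeable counting error. Sedentary controls had 0.285, 0.376 and 0.645 CPM as lowest, median and highest, and sedentary PBM mice 0.286, 0.746 and 1.06 CPM. The sedentary PBM mice split into mice 3, 4 and 6 at 1.05 to 1.06 CPM, above every control, and mice 1, 2 and 5 at 0.286 to 0.441 CPM, inside the control range. Fatigued controls averaged 0.505 ± 0.162 CPM and fatigued PBM mice 0.557 ± 0.355 CPM, with mouse 5 highest at 1.24 CPM. The sedentary PBMT log2 fold change was 0.72 (SE 0.350), again a description. Egr2 was called in none of the 3 comparisons tested by edgeR: log2 fold changes were 0.15 for PBMT in fatigued muscle, 0.21 for fatigue without PBMT and -0.36 for fatigue after PBMT, with exact permutation p of 0.965, 0.444 and 0.439. The first of these turned to -0.27 without fatigued PBM 5 and to -0.12 with limma voom. Leaving out 1 mouse at a time, the second was 0.08 to 0.35 (0.11 without sedentary control 4) and the third -0.78, the value without fatigued PBM 5, to -0.22.

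Egr3 (ENSMUSG00000033730, chromosome 14, 70077203 to 70082614, plus strand) was as sparse, with 1 to 60 counts per mouse. Group means were 0.447 ± 0.130 CPM in sedentary controls, 0.447 ± 0.325 in sedentary PBM mice, 0.377 ± 0.302 in fatigued controls and 0.553 ± 0.233 in fatigued PBM mice. All 4 groups overlapped. Sedentary PBM mice spread to both sides of the controls, with 2 above the highest and 3 below the lowest, and fatigued control 4 had a single count. The sedentary PBMT log2 fold change was 0.02 (SE 0.40), 0.01 without sedentary control 4, and had no fixed sign: it was negative in 7 of 18 alternatives, among them -0.33 without sedentary PBM 6. Tested log2 fold changes were 0.56 for PBMT in fatigued muscle, -0.24 for fatigue without PBMT and 0.30 for fatigue after PBMT, with exact permutation p of 0.197, 0.383 and 0.323, and none was called by edgeR. Leaving out 1 mouse at a time, the first was 0.31 without fatigued control 4 to 1.04 without fatigued control 5, the second -0.73 without the latter to 0.01 without the former, and the third 0.09 to 0.65. Without fatigued PBM 5 the first and the third were 0.35 and 0.09. Egr4, the other gene of the family, had 0 to 2 counts per mouse and was below the filter in every comparison, whereas Egr1, Egr2, Egr3, Nab1 and Nab2 all passed it.

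Nab1 (ENSMUSG00000002881, chromosome 1, 52457294 to 52500679, minus strand) was the steadiest of the 5. Its level was 15.5 ± 1.81 CPM in sedentary controls, 16.5 ± 1.86 in sedentary PBM mice, 15.3 ± 1.45 in fatigued controls and 15.6 ± 2.28 in fatigued PBM mice, and every mouse lay between 12.5 and 19.4 CPM. The 4 group ranges overlapped, and the means differed by less than the SD within groups. PBMT in sedentary muscle gave a log2 fold change of 0.09 (SE 0.0971), and 0.03 without sedentary control 4. Nab1 was not called by edgeR in the 3 comparisons tested, with log2 fold changes of 0.04, -0.02 and -0.07 for PBMT in fatigued muscle and for fatigue without and after PBMT, and exact permutation p of 0.788, 0.803 and 0.487. The first changed sign without fatigued control 1 or fatigued PBM 5, and the second without fatigued control 1 or sedentary control 1. The second was -0.08 without sedentary control 4, and the third -0.15 without fatigued PBM 5.

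Nab2 (ENSMUSG00000025402, chromosome 10, 127660918 to 127668568, minus strand) had a lowest, median and highest level of 2.75, 3.26 and 4.5 CPM in sedentary controls, the highest in mouse 4. Sedentary PBM mice had 1.82, 2.92 and 4.02 CPM. Fatigued controls had 3.23, 4.83 and 5.79 CPM. Fatigued PBM mice had 3.65, 5.19 and 11.7 CPM, the last in mouse 5. Each fatigued group overlapped its sedentary counterpart, with 4 of 6 mice above it in both. Counts per mouse ran from 85 to 765. PBMT in sedentary muscle left Nab2 with a log2 fold change of -0.26 (SE 0.185), with 2 of 6 PBM mice below the lowest control and 0 above the highest. It was -0.17 without sedentary control 4.

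Nab2 rose in fatigued against sedentary mice after PBMT, to 2.10 times the mean CPM (log2 fold change 1.07, SE 0.236, edgeR adjusted p = 0.00152, exact permutation p = 0.00649). Here edgeR called 26.8% of 15108 genes, 14.1% as higher, so 1 of 5 is a share near the background. The call held in 18 of 18 alternatives, with adjusted p from 5.31e-05 to 0.0118 and log2 fold changes from 0.76, the value without fatigued PBM 5, to 1.19. Without PBMT the same contrast gave 0.44 (SE 0.234, edgeR adjusted p = 0.198, exact permutation p = 0.0303), past the threshold only with limma voom (0.50, adjusted p = 0.0444), where the range over alternatives was 0.0444 to 0.322. That value was 0.53 without sedentary control 4. PBMT in fatigued muscle gave 0.37 (SE 0.259, edgeR adjusted p = 0.9998, exact permutation p = 0.394), and 0.05 without fatigued PBM 5. The difference between the PBMT effects in the 2 exercise states, 0.63 (SE 0.331), was not tested.

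Nab2 overlaps 3 genes on the opposite strand: 1050 of its exonic bases lie in exons of Gm16229, 151 in exons of Nemp1 and 40 in exons of Stat6. The strand setting of the counting is not given in the sources used here, so reads of the opposite strand cannot be told apart. Gm16229 had 0 to 2 counts per mouse. Nemp1 averaged 2.43, 2.61, 2.39 and 2.40 CPM in sedentary control, sedentary PBM, fatigued control and fatigued PBM mice. Stat6, the most abundant of the 3, averaged 20.2, 20.5, 23.9 and 24.7 CPM in the same order. Nemp1 (3.44 CPM) and Stat6 (29.4 CPM) were both highest of all 24 mice in fatigued PBM 5, as was Nab2. The part of these genes in the counts of Nab2 was not tested.

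Levels of different genes were compared as CPM per kb of exon. In sedentary controls Nab1 led with a mean of 3.79 CPM per kb, followed by Nab2 (1.16), Egr1 (0.502), Egr2 (0.129) and Egr3 (0.101). Egr1 was on a par with Nab1 in sedentary PBM mice, at 3.94 beside 4.01 CPM per kb, and in fatigued controls, at 3.84 beside 3.72. In fatigued PBM mice it averaged 6.30 beside 3.81 CPM per kb for Nab1, which rests on mouse 3: without it the 2 genes were again on a par, at 3.96 and 3.81. The order of the 5 genes thus differed between sedentary controls and the other groups through Egr1, while Nab2 went from 1.16 and 0.967 CPM per kb in the sedentary groups to 1.58 and 2.03 in the fatigued ones.

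The spread between mice also differed among the 5 genes. The SD of log2 CPM of Egr1 was 0.33 in sedentary controls, where 34.2% of 15108 genes had a larger one. It was 0.92 in sedentary PBM mice, 0.96 in fatigued controls and 1.16 in fatigued PBM mice, where 2.65%, 2.68% and 1.4% of genes were more variable. The medians over all genes in these 4 groups were 0.25, 0.19, 0.19 and 0.23. Egr1 was thus among the most variable genes wherever its mean was high. Nab1 stayed below the median SD in every group, with 0.17, 0.16, 0.14 and 0.21. Egr3 reached 1.40 in fatigued controls through the single count of mouse 4.

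Correlations between mice were computed for the 10 pairs of the 5 genes in each group of 6 mice, on log2 CPM. They had been in view when the genes were selected on earlier results, and with 6 mice each is a description. Over all 6 mice per group, no pair had the same sign in all 4 groups. Without sedentary control 4, Nab1 and Nab2 had a positive r in every group. Egr1 and Egr2 went together in sedentary PBM mice (Pearson r = 0.84, Spearman rho = 0.77, r = 0.98 without the 2 mice farthest from the median of Egr1), since mice 3, 4 and 6 were highest for both. In sedentary controls, fatigued controls and fatigued PBM mice the same pair had r of -0.09, -0.54 and -0.05. Egr2 and Egr3 were closest in fatigued PBM mice (r = 0.94, rho = 0.94, r = 0.95 without the 2 mice farthest in Egr2), against -0.09, 0.54 and 0.24 in sedentary controls, sedentary PBM mice and fatigued controls.

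The corepressors showed no fixed relation to the factors. Egr2 and Nab1 ran opposite in sedentary PBM mice (r = -0.86, rho = -0.89, r = -0.69 without the 2 mice farthest in Egr2) and had r of 0.59, -0.04 and 0.48 in sedentary controls, fatigued controls and fatigued PBM mice. In the sedentary PBM mice, summed CPM of endothelial markers had r of -0.91 with Egr2 and 0.96 with Nab1. Smooth muscle and pericyte sums had -0.87 and 0.91 there, erythrocyte sums had -0.84 and 0.85, and a part of these cells was not tested. In sedentary controls, fatigued controls and fatigued PBM mice, endothelial sums had r of -0.61, 0.10 and 0.57 with Egr2. With Nab1 they had -0.34, 0.90 and 0.70 in these groups. Egr1 and Nab2 had r of 0.19, -0.64, -0.02 and 0.21 in the order sedentary control, sedentary PBM, fatigued control and fatigued PBM. The first has no stable value: it was 0.97 over the 5 mice without sedentary control 4, which had the lowest Egr1 and the highest Nab2 of its group, and -0.96 without the 2 mice farthest in Egr1. Nab1 and Nab2 had r of -0.52, 0.35, 0.60 and 0.77 in the same order. The negative value rests on sedentary control 4: without it r was 0.12, and the pair was then positive in every group. The value in fatigued PBM mice turned to -0.95 without the 2 mice farthest in Nab1, so it rests on them, with fatigued PBM 5 highest for both genes.

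**Figure D2:**
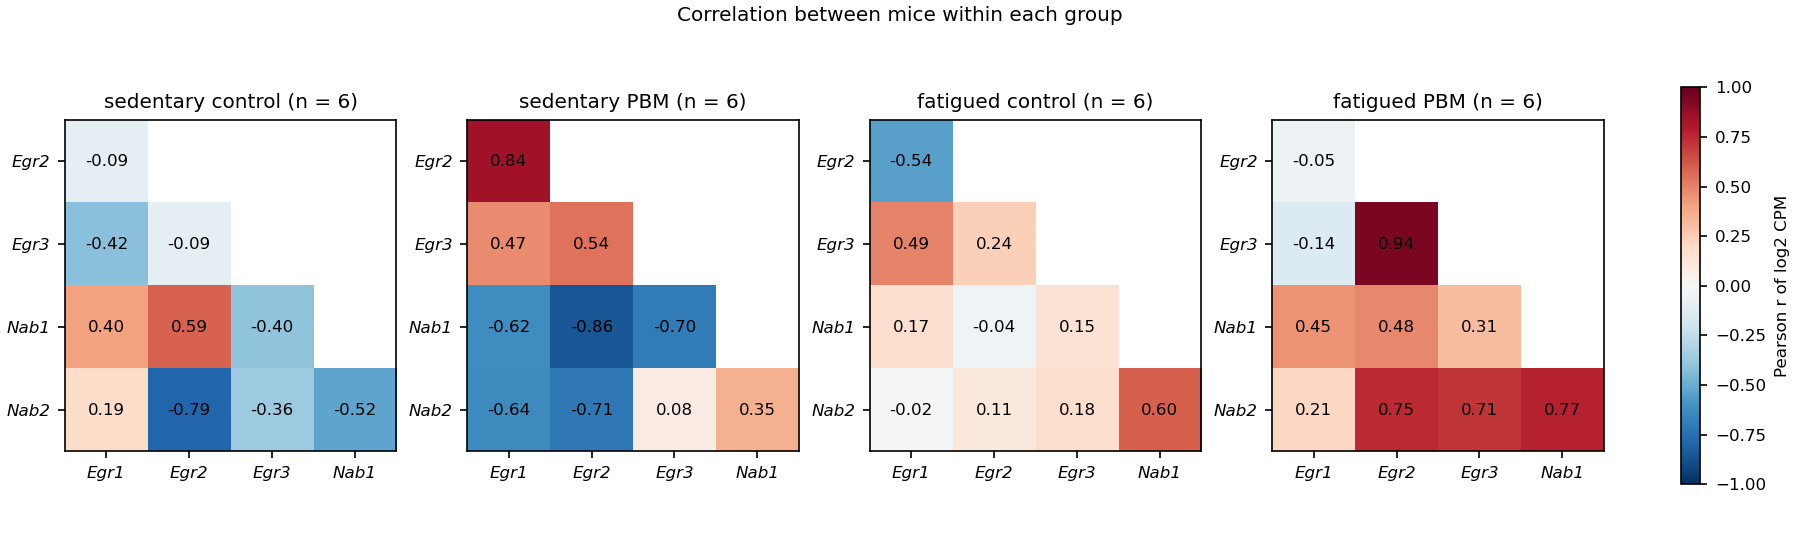
Pearson r of log2 CPM between mice for the 10 pairs of Egr1, Egr2, Egr3, Nab1 and Nab2, in each group of 6 mice (color scale from -1 to 1). Egr1 and Egr2 have r = 0.84 in sedentary PBM mice and -0.54 in fatigued controls, and no pair keeps its sign in all 4 groups over all 6 mice. Without sedentary control 4, Nab1 and Nab2 have r = 0.12 in sedentary controls and a positive r in every group.

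Likeness of pattern was measured as Pearson r of log2 CPM deviations from group means over the 24 mice, among 15108 genes. Genes whose pattern was much like that of Egr1 included Fos (r = 0.757), Lyplal1 (0.744), Trib1 (0.715) and Fosb (0.703). Within groups, Fos had r of 0.01 with Egr1 in sedentary controls, 0.90 in sedentary PBM mice, 0.96 in fatigued controls and 0.80 in fatigued PBM mice. The likeness to Fos was thus seen in the 3 groups where Egr1 was high. Fatigued PBM 3 had the highest Egr1 and the highest Fos (84.7 CPM) of all 24 mice. Fos averaged 4.80 ± 2.62 CPM in sedentary controls, 19.0 ± 12.7 in sedentary PBM mice, 20.8 ± 17.4 in fatigued controls and 28.7 ± 29.0 in fatigued PBM mice.

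The 3 genes most like Egr2 were Ism1 (r = 0.739), Mmp9 (0.737) and Spp1 (0.728). For Egr3 they were Anxa8 (0.853), Ildr2 (0.810) and Vit (0.809). Mouse 4 of the fatigued controls, with its single Egr3 count, was also the lowest of its group for Anxa8, Ildr2 and Vit, at 0.236, 0.640 and 0.640 CPM. Trim30a (0.867), Itpripl2 (0.856) and Wwtr1 (0.837) were most like Nab1, and Epb41l1 (0.846), Cit (0.830) and Pck2 (0.826) most like Nab2. Epb41l1, Cit and Pck2 were highest in fatigued PBM 5 among the fatigued PBM mice, as was Nab2.

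**Figure D3:**
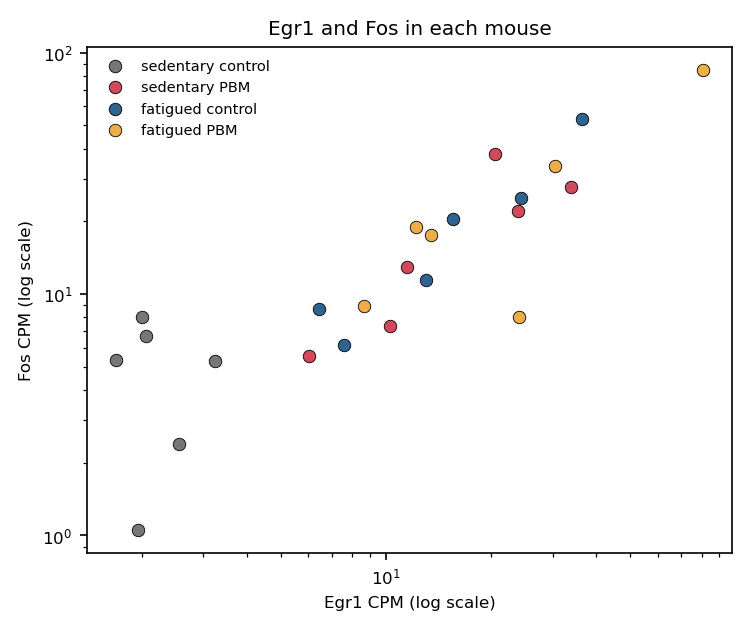
CPM of Egr1 against Fos in each of the 24 mice, both axes on a log scale, colored by group. Fatigued PBM 3 is highest in both genes, at 80.6 CPM for Egr1 and 84.7 for Fos.

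Upstream of the Egr genes, 22 genes of the ERK cascade, of SRF and its partners and of CREB were tested in every comparison. Neither PBMT contrast called any of them by edgeR, with a median log2 fold change of 0.02 in sedentary muscle and 0.00 in fatigued muscle, beside 0.00 over all genes in both. In fatigued against sedentary controls, Mrtfa, a coactivator of SRF, was the 1 gene called and was lower (-0.48, adjusted p = 0.0335), beside 9.49% of all genes, and 3 genes were lower without sedentary control 4. After PBMT, where 14.1% of all genes were higher and 12.7% lower, 5 of the 22 were lower and 0 higher, among them Creb1 (-0.34), Mrtfa (-0.60) and the ERK-activated kinase gene Rps6ka1 (-0.36). That count was 3 without fatigued PBM 5. The list medians were -0.08 in both contrasts, beside -0.01 and 0.00 over all genes.

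Of 29 other immediate early genes, which respond to the same kinds of signal, 28 were tested in sedentary muscle. With PBMT, 1 of these was called, Ccn1 (20.6 ± 1.81 CPM in controls, 45.0 ± 8.99 with PBMT), beside 0.0282% of all genes, while 14 of the 28 had higher and 14 lower estimates. Without sedentary control 4, 1 was called higher and 1 lower. In fatigued muscle PBMT called 0 of 29, with 21 higher and 8 lower estimates and a median log2 fold change of 0.21, beside 0.00 over all genes. In fatigued against sedentary controls, 13 of 29 were higher and 3 lower (14 and 3 without sedentary control 4), beside 9.1% and 9.49% of all genes, with a median of 0.69 beside -0.01. The smallest p were those of Atf3 (4.28), Nr4a3 (4.75), Maff (2.05) and Sik1 (1.43). Fos was among the higher genes (log2 fold change 2.12, edgeR adjusted p = 0.0331). In fatigued against sedentary mice after PBMT it was 0.59 and not called (edgeR adjusted p = 0.521). After PBMT, 16 were higher and 4 lower, counts that were the same without fatigued PBM 5, beside 14.1% and 12.7% of all genes, with a median of 0.88 beside 0.00. Those with the smallest p were Atf3 (5.00), Maff (3.33), Sik1 (2.45) and Fosl2 (0.94).

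The 17 textbook EGR1 targets hold genes of matrix, growth factors and vessels. Lhb had 0 counts in every mouse, and 16 were tested. Neither PBMT contrast called any by edgeR, although 14 of the 16 had higher estimates in fatigued muscle (median log2 fold change 0.15 beside 0.00 over all genes). Part of this rests on fatigued PBM 5, without which 10 were higher (median 0.05). Of the estimates in sedentary mice, 9 were higher and 7 lower (median 0.02). No called change in these genes accompanied the higher Egr1 level of the sedentary PBM mice. In fatigued against sedentary controls 6 of 16 were higher and 0 lower, beside 9.1% and 9.49% of all genes, with a median of 0.35, and the smallest p were those of the matrix genes Thbs1 (1.36) and Fn1 (1.34), the adhesion gene Icam1 (1.02) and the growth factor gene Pdgfb (0.54). The same counts were found without sedentary control 4. After PBMT 7 were higher, among them Thbs1 (1.72), Fn1 (1.65), Icam1 (1.43) and Tgfb1 (0.84), and Fgf2 was lower (-0.45), beside 14.1% and 12.7% of all genes, with a median of 0.56. These counts did not change without fatigued PBM 5.

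Among 3 targets of EGR2 and EGR3 known from lymphocytes, Fasl was at 0 in 3 groups and Cblb and Ndrg1 were tested. Cblb, a ubiquitin ligase gene, rose in fatigued against sedentary muscle after PBMT (0.46, edgeR adjusted p = 0.00288), and no other contrast called either gene. Of the 12 NuRD genes, the complex that NAB proteins recruit, none was called with PBMT by edgeR in either exercise state. Mta2 was lower in fatigued than in sedentary mice without PBMT (-0.21) and after it (-0.25), as was Hdac2 after it (-0.20), so that 1 and 2 of 12 were lower, beside 9.49% and 12.7% of all genes. Without sedentary control 4, 2 NuRD genes were also higher in the first of these. The list medians lay between -0.01 and 0.03 in all 4 contrasts.

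Markers of cell types were followed beside these genes, since fewer cells of a type and less RNA per cell cannot be told apart in whole muscle. Neither PBMT contrast called a gene of any of the 12 marker lists by edgeR. In sedentary muscle, all 8 myeloid markers (median log2 fold change -0.55) and all 9 interstitial mesenchymal markers (-0.26) had lower estimates with PBMT. Estimates were higher for 7 of 8 Schwann cell and myelin markers (0.17) and all 4 satellite cell markers (0.10, and 3 of 4 without sedentary control 4). Whether any of these cells have a part in the Egr1 level of sedentary muscle was not tested. Myeloid sums were 66.2 ± 24.99 CPM in sedentary controls and 45.0 ± 10.7 in sedentary PBM mice, with Lyz2 the most abundant. In fatigued muscle all 8 tendon markers (median 0.30) and all 9 interstitial ones (0.12) had higher estimates, and all 9 Schwann cell and myelin markers had lower ones (-0.16). The first 2 directions rest on fatigued PBM 5: without it 6 of 8 tendon markers (-0.16) and 8 of 9 interstitial ones (-0.11) had lower estimates, whereas the Schwann cell and myelin markers were again all lower (-0.32).

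More markers were called between fatigued and sedentary mice, where 9.1% of all genes were higher and 9.49% lower without PBMT, and 14.1% and 12.7% after it. Tendon markers summed to 168 ± 44.1, 173 ± 34.7, 343 ± 131 and 411 ± 281 CPM in sedentary control, sedentary PBM, fatigued control and fatigued PBM mice, with Fmod the most abundant and none of the 8 at 0. Of these, Thbs4 was higher in fatigued controls (1.13), and 5 of 8 were higher after PBMT, Thbs4 (1.34), Kera (1.21), Comp (1.64) and Fmod (1.17) among them. Interstitial mesenchymal markers summed to 1507 ± 243, 1209 ± 294, 2100 ± 410 and 2365 ± 1024 CPM in the same order, with Gsn the most abundant. Of these 9, 1 was higher without PBMT (Ly6a, 0.53) and 8 after it, with the smallest p for Ly6a (1.02), Gsn (0.78), Pdgfra (0.83) and Pi16 (1.76). Myeloid sums were 75.8 ± 20.1 CPM in fatigued controls and 81.9 ± 40.1 in fatigued PBM mice, with 1 of 8 markers higher without PBMT (Cd14, 0.87) and 6 after it, among them Cd14 (1.70), Csf1r (1.13), Mrc1 (1.07) and Itgam (1.85).

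Part of this rests on fatigued PBM 5, the mouse with the highest Egr2, Egr3, Nab1 and Nab2 of its group. Its sums were 958 CPM for tendon, 4371 for interstitial and 156 for myeloid markers, each the highest of all 24 mice. Without it, the contrast after PBMT called 1 tendon, 6 interstitial and 3 myeloid markers, and without sedentary control 4 the contrast without PBMT called 1, 2 and 0. Endothelial sums, with Cdh5 the most abundant, averaged 317 ± 23.2, 328 ± 63.5, 361 ± 57.5 and 373 ± 45.6 CPM in sedentary control, sedentary PBM, fatigued control and fatigued PBM mice. Over the 6 mice of each group, on the log2 scale, they had r of 0.90, 0.49, 0.81 and 0.93 with Nab2 in that order. For interstitial sums r was 0.60, 0.74, 0.14 and 0.76, for tendon sums -0.14, 0.58, -0.00 and 0.67, and for myeloid sums -0.01, 0.60, 0.85 and 0.72, all descriptions. Whether tendon, interstitial, myeloid or endothelial cells or their RNA have a part in the values of Egr1 and Nab2 in fatigued muscle was not tested.

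The muscle fiber list marks the tissue itself and summed to 122628 to 161642 CPM as group means. It had 4 of 9 markers higher in fatigued controls (Tnnt3 0.37, Myh4 0.86, Acta1 0.36 and Ckm 0.29; 6 without sedentary control 4) and 3 after PBMT (Myh4 0.65, Tnnt3 0.26 and Acta1 0.30). Of 8 endothelial markers, Vwf (0.44) and Cldn5 (0.57) were higher without PBMT, and Vwf (0.63) and Pecam1 (0.40) were higher and Emcn (-0.54) lower after it. Without sedentary control 4, 1 endothelial marker was also lower without PBMT. Of 7 smooth muscle and pericyte markers, Myh11 (0.64) and Acta2 (0.44) were higher without PBMT and again after it (0.56 and 0.46), and 3 were higher without PBMT when sedentary control 4 was left out.

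Schwann cell and myelin markers, which include the EGR2 program of myelin, had none of the 8 or 9 tested called in any contrast, with Pmp22 among the more abundant and group sums of 109 to 138 CPM. In fatigued against sedentary controls all 9 had higher estimates (median 0.39). After PBMT the same contrast had 3 higher and 6 lower (median -0.11), and 2 higher and 7 lower without fatigued PBM 5 (-0.19). Spindle markers, the setting known for EGR3, had 0 of 3 called (Etv1 and Ntf3 most abundant, group sums of 4.43 to 5.01 CPM). Satellite cell markers had 1 of 4 called, Pax7, lower in fatigued than sedentary mice after PBMT (-0.67), and 1 was higher without PBMT when sedentary control 4 was left out. No T lymphocyte marker passed the filter, and the list of 8 summed to 0.330 to 0.470 CPM as group means, with Cd8a at 0 in sedentary controls. Of 5 skin keratinocyte markers only Krt10 was tested and was lower in fatigued than sedentary mice after PBMT (-1.52). Keratinocyte sums averaged 2.86 CPM in sedentary controls and 7.23 CPM in sedentary PBM mice, where they ran from 1.61 to 25.6 CPM. The highest was that of sedentary PBM 4, the mouse with the highest Egr1 of its group (33.9 CPM), and without this mouse the PBMT log2 fold change of Egr1 was 2.68. Erythrocyte markers had 0 of 5 called (Hbb-bs and Hba-a1 most abundant, group sums of 86.4 to 102 CPM).

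Promoter windows of 300 bases around the transcription start, from RefSeq on GRCm38.p6, were found for 3 of the 5 genes, Egr2, Nab1 and Nab2, and are shown because EGR proteins bind promoters, including those of their own corepressors. On both strands they were searched for the EGR site GCGTGGGCG, its GC-rich variant GCGGGGGCG, the cAMP response element TGACGTCA and the CArG box, the site of SRF. Of all 32851 windows, 0.612% held the EGR site, 2.91% the variant, 1.79% the cAMP response element and 1.63% a CArG box. The Nab1 window (chr1:52500399-52500698, minus strand, 81.7% GC) holds the EGR site 2 times, at bases 110 and 142, as do 0.0213% of windows 2 or more times, and the variant 1 time, at base 213. All windows have a median GC of 52.7%, and the share among windows as rich in GC as that of Nab1 was not measured. Of 5 windows of Egr2, 4 hold a CArG box each, at 2 places in all, and 1, which spans the annotated start of the gene, holds none of the 4 motifs. The window shown (chr10:67537619-67537918, plus strand) lies inside the gene and was chosen because it holds a CArG box, at base 179. The Nab2 window (chr10:127666654-127666953, minus strand) lies inside the gene, does not span its annotated start at 127668568 and holds none of the 4 motifs, which says only that these letters are not in it. Each sequence runs 5' to 3' on the strand of its gene, and capitals mark the motif letters.
Nab1: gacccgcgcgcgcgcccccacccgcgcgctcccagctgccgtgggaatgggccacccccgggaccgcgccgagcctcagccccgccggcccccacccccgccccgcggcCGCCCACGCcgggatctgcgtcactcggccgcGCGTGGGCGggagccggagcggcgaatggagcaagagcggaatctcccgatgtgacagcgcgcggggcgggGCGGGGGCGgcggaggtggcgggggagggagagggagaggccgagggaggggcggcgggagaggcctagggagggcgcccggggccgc
Egr2: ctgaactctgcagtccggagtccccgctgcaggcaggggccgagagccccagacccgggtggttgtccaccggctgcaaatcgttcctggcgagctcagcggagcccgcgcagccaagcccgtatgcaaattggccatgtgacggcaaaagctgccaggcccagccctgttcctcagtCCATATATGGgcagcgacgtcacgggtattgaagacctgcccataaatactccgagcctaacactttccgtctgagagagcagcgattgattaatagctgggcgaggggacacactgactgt
Nab2: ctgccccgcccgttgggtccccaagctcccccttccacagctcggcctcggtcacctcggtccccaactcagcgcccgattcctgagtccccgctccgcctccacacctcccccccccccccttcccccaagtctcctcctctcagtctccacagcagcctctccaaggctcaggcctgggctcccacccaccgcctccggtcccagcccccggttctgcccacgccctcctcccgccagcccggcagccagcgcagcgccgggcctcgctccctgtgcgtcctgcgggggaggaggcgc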

How the data were processed

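RNA from the left TA muscle of 24 mice, 1 mouse per library, was sequenced from directional poly(A) libraries. The authors deposited whole-number counts per gene without normalization, and whether they count reads or read pairs is not given. The submitters' processing notes name Trimmomatic, STAR 2.7.1a, Picard 2.20.4, StringTie 2.0.4, featureCounts 1.6.0, HTSeq and GRCm38, with no role, and the strand setting is not given in the sources used here. Of 55487 Ensembl identifiers, 55227 matched GENCODE M21, the source of symbols and coordinates, and 260 did not.

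The 5 genes and all gene lists were chosen with earlier results of these data known. In R 4.3.3, edgeR 4.0.16 was used with TMM, filterByExpr (minimum count 10), robust quasi-likelihood tests (two-sided) and Benjamini-Hochberg adjustment at 0.05. PBMT contrasts were fitted within each project of 12 mice, and contrasts between exercise states in 1 fit of 24 mice. Log2 CPM used a prior count of 2. Exact permutation tests were two-sided. The edgeR, DESeq2 and limma fits were run on simulated counts for PBMT in fatigued muscle and for fatigued against sedentary controls. PBMT in sedentary muscle and fatigued against sedentary mice after PBMT were not simulated. A pass mark was set only for edgeR. Total counts of 43271093 to 68726155 per mouse leave the spread between mice as the main limit, to which counting error adds for the sparse Egr2 and Egr3. Among 276 pairs of mice, none shared its counts up to sampling noise.

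Named are the 5 genes; of each list, up to 4 called genes per contrast by smallest p, otherwise up to 2 of its most abundant genes; and up to 5 genes most like Egr1 and 3 most like each other gene. Fos and Fgf2 in contrasts between exercise states, Ccn1, Cited2 and Nfil3, and the genes that overlap Nab2 were named after their values were seen. Alternatives were DESeq2 size factors, DESeq2 1.42.0, limma 3.58.1 voom with sample weights, no filter, replicate number as a block, another set of mice in the fit, and leaving out each mouse. List counts without sedentary control 4 or fatigued PBM 5, and levels without fatigued PBM 3, were added after seeing the data. Computations outside R used Python 3.11.15, numpy 2.4.6, pandas 2.3.3, scipy 1.17.1 and matplotlib 3.10.9.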

Additional observations from a re-analysis of the deposited data

Results flagged for a closer look

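Sedentary control 4 lay farther from the mean of its group than the other sedentary controls, at a root mean square distance of 0.473 on the log2 scale over all genes tested. Its gap to the nearest other mouse was 0.819 of the range of the group, past the 95% value of Dixon's test for 6 samples, which chance passes in about 1 in 20 groups. It had the lowest Egr1, Egr2 and Nab1 and the highest Nab2 of the sedentary controls. The cause was not tested.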

How the results depend on the processing

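Of 360 log2 fold changes of the 5 genes under alternatives, the 90 in sedentary muscle had no test. All 90 moved by less than the spread between mice. That rule counts no lost call and, except for Egr1, no change of sign, and the Egr1 call was lost in 7 of 18 alternatives. Of the 270 with a test, 262 kept their direction and side of the threshold, 7 reversed and 1 gained a call. The 7 reversed ones were not called: Egr2 with PBMT in fatigued muscle was -0.12 with limma voom and -0.27 to 0.29 when each mouse was left out, Nab1 there was -0.038 to 0.093, and in fatigued against sedentary controls Egr3 was -0.73 to 0.0051 and Nab1 -0.079 to 0.021. With limma voom, Nab2 was called in fatigued against sedentary controls (0.50), which made 2 of the 5 genes called and 4945 genes in all. Egr3 with PBMT in sedentary muscle, not tested, was also negative in 7 of 18 alternatives: -0.24 with limma voom, -0.16 with the block and -0.33 to 0.18 when each mouse was left out. In sedentary muscle with PBMT, 0 of the 5 genes were called with no filter or with all 24 mice in the model, and 0 to 1 when each mouse was left out. Genes called there numbered 62 with DESeq2, 50 with limma voom, 16 with no filter, 11 with the block, 1 with all 24 mice and 2 to 20 when each mouse was left out: 2 without control 1, 2 or 6, 18 without control 4, 10, 7 and 20 without PBM 2, 4 and 5. With PBMT in fatigued muscle, DESeq2 called 2 genes and the block 1. The cause was not tested. Alternatives moved the median of all genes by at most 0.02. With replicate number as a block, Egr1 was 2.79 in sedentary muscle and 2.89 in fatigued against sedentary controls, and Nab2 1.00 after PBMT. Replicate numbers were checked as a pairing: mice sharing a number had r of -0.07 to 0.07 in the sedentary project and -0.08 to 0.33 in the fatigued one. There 4 of 6 were over 0.1 and 3 of 6 were closest to their own number. Since this did not hold for every pair, the mice were not treated as paired, and with the block Egr3 there was 0.78 and not called. Taking each count as 1 fragment, the coefficient of variation between mice was above that of counting error for all 5 genes in each group, least so for Egr3 in sedentary controls (29.1% beside 22.0%). Counting error is larger if both reads of a pair were counted, and for Egr3 there the spread could then be counting error alone.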
